A study of Mus musculus with 2 samples.

Results

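Enteroendocrine hormones and granins were followed in single cells of mouse intestinal organoids through 10 genes: the peptide hormone genes Cck, Ghrl, Gcg, Sst, Gip, Pyy and Tac1, the granins Chga and Chgb, and Tph1. They were chosen by name, as rows of the deposited table of unique molecular identifiers (UMIs, each standing for 1 captured transcript), and all 10 were found among its 15745 genes. The organoids, epithelial cultures that form crypt-like buds, were labelled wild type, strain C57BL/6, age 10 weeks. Droplet-based 3′ libraries were made from 1 culture stage each, day 3 (798 cells) and day 5 (1065 cells). Cells of both libraries had received EGF, Noggin and R-spondin throughout, and until day 3, Wnt3a-conditioned medium at 20% with Y-27632 (a ROCK inhibitor) at 10 µM, and until day 1 CHIR99021 (a GSK3B inhibitor) at 3 µM. The day 5 culture had then been without these supplements from day 3 on, so day and medium cannot be told apart. With 1 library per day there was no replicate, no test between days was possible, and intervals cover counting error only.

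Enteroendocrine cells are the rare hormone-secreting cells of the gut epithelium. They arise from secretory progenitors that pass through a phase with the transcription factor Neurog3, and they store peptides in dense-core granules built with granins and emptied on nutrient or nerve signals. They are classed by their main product, although single cells are known to make several: cholecystokinin (Cck), ghrelin (Ghrl), proglucagon, from which glucagon-like peptides are cut (Gcg), somatostatin (Sst), glucose-dependent insulinotropic peptide (Gip), peptide YY (Pyy) and substance P (Tac1). Enterochromaffin cells instead make serotonin, for which Tph1 is the rate-limiting enzyme, and often Tac1 as well.

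The 10 genes are protein-coding and lie on 7 chromosomes of GRCm38 in GENCODE M21. Cck (ENSMUSG00000032532) is at chr9:121489824-121495694, Gcg (ENSMUSG00000000394) at chr2:62474530-62483650 and Ghrl (ENSMUSG00000064177) at chr6:113716119-113719880, all on the minus strand. Pyy (ENSMUSG00000017311, minus strand) is at chr11:102106676-102107832 and Gip (ENSMUSG00000014351, plus strand) on the same chromosome at chr11:96024545-96030831. Chgb (ENSMUSG00000027350, plus strand) shares chromosome 2 with Gcg, at chr2:132781278-132795079, and Tac1 (ENSMUSG00000061762, plus strand) shares chromosome 6 with Ghrl, at chr6:7554879-7565834. Chga (ENSMUSG00000021194, plus strand) is at chr12:102554969-102565028, Sst (ENSMUSG00000004366, minus strand) at chr16:23889573-23890958 and Tph1 (ENSMUSG00000040046, minus strand) at chr7:46644641-46672537.

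Shown here are the 250 bases before the RefSeq start (GRCm38.p6) of Cck, Ghrl, Gcg and Pyy, each 5′ to 3′ on the gene's strand. A single day 3 cell carried these 4 genes together, along with Tac1 and Chgb, whose windows are not shown. Capitals mark matches to CAGNTG (the E-box that basic helix-loop-helix factors such as Neurog3 and Neurod1 can bind) and to TATAAA, on either strand.
Cck, chr9:121495695-121495944: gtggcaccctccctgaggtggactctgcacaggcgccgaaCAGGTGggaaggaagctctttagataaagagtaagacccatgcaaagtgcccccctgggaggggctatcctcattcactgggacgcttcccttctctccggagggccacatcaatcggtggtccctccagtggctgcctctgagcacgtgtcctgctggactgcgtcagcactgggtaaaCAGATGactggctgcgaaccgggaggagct
Ghrl, chr6:113719912-113720161: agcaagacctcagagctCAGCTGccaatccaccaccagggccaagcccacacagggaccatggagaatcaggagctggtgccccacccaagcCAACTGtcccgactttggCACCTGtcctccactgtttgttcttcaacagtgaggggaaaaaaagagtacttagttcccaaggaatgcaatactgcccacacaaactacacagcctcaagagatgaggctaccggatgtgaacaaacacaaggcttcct
Gcg, chr2:62483654-62483903: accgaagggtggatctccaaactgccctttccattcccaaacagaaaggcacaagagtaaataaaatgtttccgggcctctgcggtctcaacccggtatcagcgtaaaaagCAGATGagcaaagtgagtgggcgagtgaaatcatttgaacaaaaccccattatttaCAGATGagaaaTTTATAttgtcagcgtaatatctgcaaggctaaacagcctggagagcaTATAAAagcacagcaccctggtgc
Pyy, chr11:102107833-102108082: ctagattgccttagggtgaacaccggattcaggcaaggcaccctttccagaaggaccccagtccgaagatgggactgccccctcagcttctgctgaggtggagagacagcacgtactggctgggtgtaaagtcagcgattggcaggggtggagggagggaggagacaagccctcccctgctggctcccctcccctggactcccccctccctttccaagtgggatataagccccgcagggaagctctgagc
Counted from the start, the CAGNTG matches begin at -210 and -30 in Cck, at -233, -158 and -140 in Ghrl and at -139 and -83 in Gcg, and the Pyy window has none. CAGNTG was found in 7 of the 10 members' windows, beside 44.8% of all 32817 windows of that length. TATAAA was found in 1 of 10, Gcg, beside 12.4% of windows. The cyclic AMP response element TGACGTCA was found in 2 of 10, at -48 in Sst and -72 in Chgb, beside 1.55% of windows. The RefSeq starts of Sst and Chgb lay 114 and 364 bases from their GENCODE starts, so both matches fall inside the GENCODE gene spans given above. A match is a description of these letters only, and no binding was measured.

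Nearly all hormone and granin UMIs lay in a handful of cells. The 10 genes together had 3935 UMIs at day 3 and 7575 at day 5. A cell with at least 10 UMIs of any 1 member is called a carrier below. There were 9 carriers among the 798 cells of day 3, or 1.13% (exact Clopper-Pearson 95% interval 0.517 to 2.13), and 7 among the 1065 cells of day 5, or 0.657% (0.265 to 1.35). These intervals overlap. The 9 carriers of day 3 held 82.9% of that library's member UMIs and the 7 of day 5 held 94.4%, and the 3 richest cells alone held 70.9% and 83.5%.

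**Figure D1:**
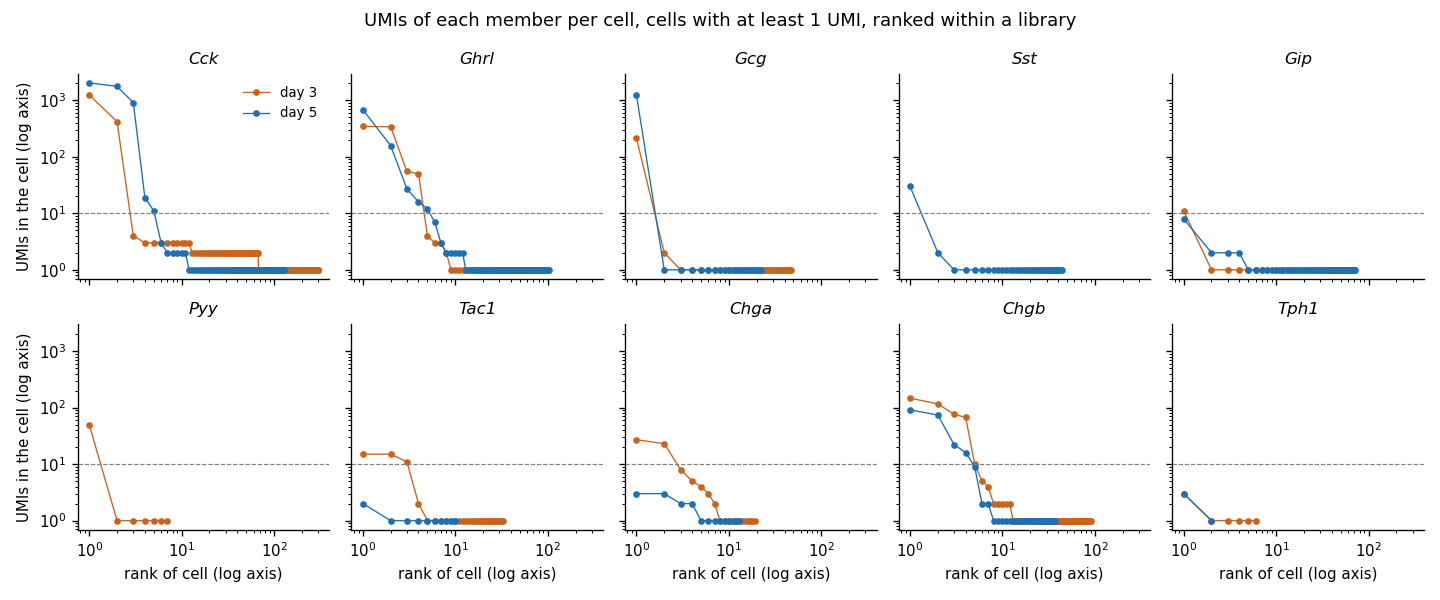
UMIs of each member per cell (y, log axis) against the rank of the cell within its library (x, log axis), 1 panel per gene, for cells with at least 1 UMI at day 3 (orange) and day 5 (blue); the dashed line marks 10 UMIs. Cck, Ghrl, Gcg and Chgb fall steeply from the first cells to a floor of 1 to 4 UMIs, with few cells between.

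This concentration differed from that of an ordinary gene. Among genes with at least 10 UMIs in a library, the richest cell held a median of 1.3% of a gene's UMIs at day 3 (12143 genes) and 1.61% at day 5 (11536 genes). A share of at least 40% in 1 cell was seen in 42 genes, or 0.346%, at day 3 and in 45 genes, or 0.390%, at day 5. Of the 8 members with at least 10 UMIs on a given day, 4 reached it at day 3 (Cck, Gcg, Gip and Pyy) and 4 at day 5 (Cck, Ghrl, Gcg and Sst). Counted as UMIs per 10000 of the cell instead, Cck (39.0%) and Gip (37.3%) at day 3 and Sst (36.0%) at day 5 fell short of it. Ghrl (52.1%), Chga (47.3%) and Chgb (43.0%) at day 3 and Chgb (46.4%) at day 5 then reached it.

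**Figure D2:**
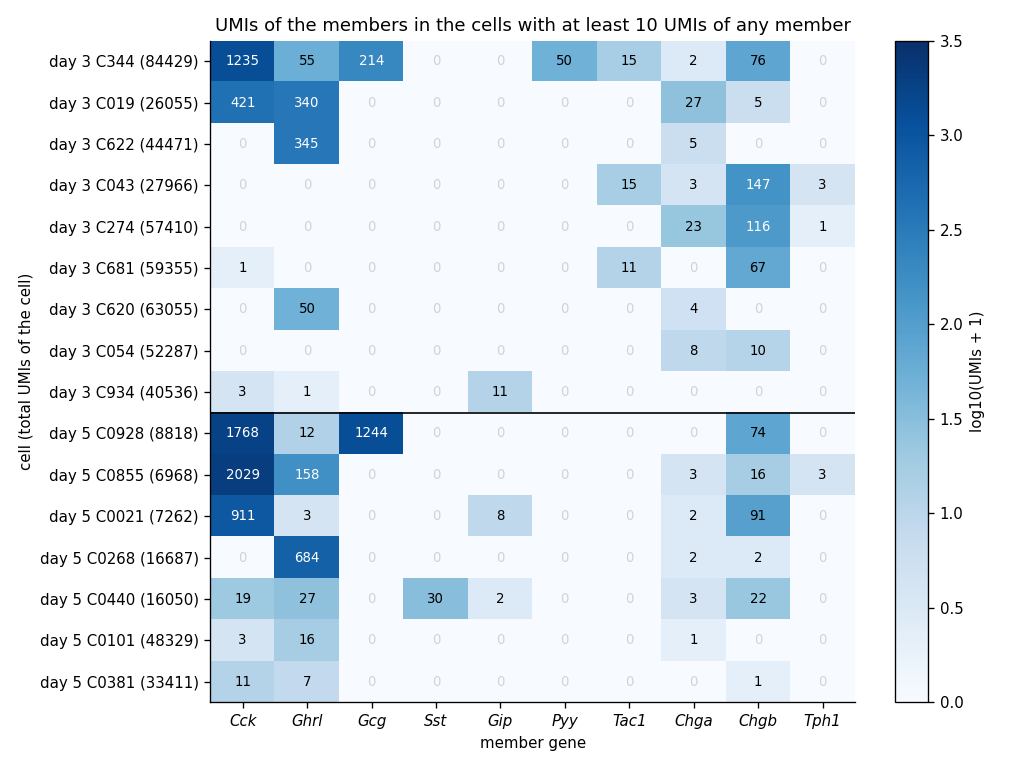
UMIs of the 10 members (columns) in each of the 16 carrier cells (rows, with the cell's total UMIs in brackets); colour is log10(UMIs + 1), the line parts day 3 above from day 5 below, and printed digits are the counts. Cell C344 carried 6 members, C0928 and C0440 carried 4 each, and 7 of the 16 carried 1.

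Cck was the most abundant member on both days. At day 3 its 2028 UMIs came mainly from 2 cells, C344 with 1235 UMIs and C019 with 421, and the third highest cell had 4. At day 5 the 4867 UMIs came mainly from 3 cells, C0855 with 2029, C0928 with 1768 and C0021 with 911, followed by C0440 with 19 and C0381 with 11. Cck thus had a few very rich cells on both days, and in the day 5 ones it took a far larger share of the cell's transcripts. It made up 29.1% of all UMIs of C0855, 20.0% of C0928 and 12.5% of C0021, beside 1.62% in C019 and 1.46% in C344 at day 3. Those 3 day 5 cells were shallow, at 6968, 8818 and 7262 UMIs, or 0.514, 0.651 and 0.536 of their library's median of 13549.

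Ghrl also had rich cells with hardly any other hormone. At day 3, 4 cells carried it: C622 with 345 UMIs, C019 with 340, C344 with 55 and C620 with 50. At day 5, 5 cells did: C0268 with 684 UMIs, C0855 with 158, C0440 with 27, C0101 with 16 and C0928 with 12. In C622, C620 and C0268 the other members with a UMI were the granins, with 5 and 4 UMIs of Chga in C622 and C620 and 2 of each granin in C0268. Ghrl was 4.10% of all UMIs of C0268 and 0.776% of those of C622.

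Gcg rested on 1 cell per library. Of its 261 UMIs at day 3, 214 were in C344, and of its 1265 at day 5, 1244 were in C0928, where they made up 14.1% of the cell. No other cell had more than 2. The richest cell thus held 82.0% of Gcg at day 3 and 98.3% at day 5, and both of these cells were also carriers of Cck, Ghrl and Chgb.

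Sst, Gip and Pyy each had 1 cell with at least 10 UMIs. Sst was listed with 0 UMIs at day 3, which allows a share of cells with a UMI of up to 0.376%, and its 74 UMIs at day 5 included 30 in C0440. Pyy was the reverse: 50 of its 56 UMIs at day 3 were in C344, and day 5 had 0, which allows up to 0.282% of cells. Gip had 11 of its 25 UMIs at day 3 in C934, and its richest cell at day 5, C0021, had 8 of 81. For Gip at day 5 most UMIs, 87.7%, lay outside all carriers, in 69 cells with 1 or 2 each.

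Granin UMIs were found in most carriers, at different levels, but the granins are themselves among the members that define a carrier. C274 and C054 were carriers through granins alone, with 0 UMIs of any peptide hormone among the members. C054 did hold 3 UMIs of Sct (secretin), a hormone that is not a member. C622 and C620, both Ghrl carriers, had 0 UMIs of Chgb, and C934 had 0 of both granins. Chgb had at least 10 UMIs in 5 cells at day 3 (C043 with 147, C274 with 116, C344 with 76, C681 with 67 and C054 with 10) and in 4 at day 5 (C0021 with 91, C0928 with 74, C0440 with 22 and C0855 with 16). Chga was lower, with 27 UMIs in C019 and 23 in C274 at day 3 and at most 3 in any day 5 cell. It was nevertheless found in 7 of 9 carriers of day 3 and 5 of 7 of day 5, and every cell with 2 or more Chga UMIs (7 and 4) was a carrier. Among other cells, Chga never passed 1 UMI.

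Tac1 and Tph1, the enterochromaffin products on the list, were scarce. Tac1 had 15 UMIs in C344, 15 in C043 and 11 in C681 at day 3, and at day 5 no cell had more than 2. Tph1 had 8 UMIs at day 3, 3 of them in C043, and 4 at day 5, 3 of them in C0855, so no cell reached 10. Cell C043 held Tac1, Tph1, 147 UMIs of Chgb, 5 of Fev (a transcription factor of serotonin cells), 1 of Lmx1a (another such factor) and 2 of Slc18a1 (the transporter that loads serotonin into granules), and 0 of Cck, Ghrl and Gcg. Its 4.65 UMIs of the serotonin list per 10000 were the highest value among the day 3 carriers.

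Most members shared a cell with others. Of the 9 day 3 carriers 5 had at least 10 UMIs of 2 or more members, and of the 7 day 5 carriers 4 did. Of the 45 possible pairs of members, 21 shared at least 1 carrier, 7 shared at least 2, and 6 were seen on both days. Those 6 are all the pairs among Cck, Ghrl, Gcg and Chgb. At day 3, however, 5 of the 6 (all but Cck with Ghrl) were seen in 1 cell only, C344. Cck and Ghrl shared 5 cells, which are 71.4% of the 7 Cck carriers and 55.6% of the 9 Ghrl carriers. Cck and Chgb also shared 5, again 71.4% and 55.6%, and Ghrl and Chgb shared 4, or 44.4% of the 9 carriers of each. Tac1 and Chgb shared 3 cells, all 3 Tac1 carriers and 33.3% of the Chgb carriers, all at day 3. Both Gcg carriers also carried Cck, Ghrl and Chgb. The 2 granins, by contrast, were at 10 or more UMIs together only in C274.

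The widest mixtures were in single cells. C344 carried Cck, Gcg, Chgb, Ghrl, Pyy and Tac1 (1235, 214, 76, 55, 50 and 15 UMIs), and all 8 pairs that include Pyy or join Tac1 to a hormone rest on it. It was a deep cell, with 84429 UMIs, or 2.63 times its library's median. C0440 carried Sst with Ghrl, Chgb and Cck (30, 27, 22 and 19 UMIs) at 16050 UMIs, 1.18 times the median, and was the sole cell behind the 3 pairs with Sst. Doublets were not called here, so whether a barcode held more than 1 cell was not tested. C0928 and C0855, with 4 and 3 members carried, lay below their library's median.

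Summed over whole libraries, 5 members were higher at day 5 and 3 lower by the rule used here, at least 1.5-fold with exact Poisson 95% intervals apart. Over all 12782 genes with at least 10 UMIs, 12.3% were higher and 31.5% lower. All 10 members had at least 10 UMIs over both libraries. Scaled to 1000000 UMIs per library (CPM), Cck measured 70.5 CPM (67.5 to 73.6) in the day 3 library against 281 CPM (273 to 289) in that of day 5. Its log2 ratio, day 5 over day 3, was 1.99 (1.92 to 2.07). For Gcg, 9.07 CPM (8.01 to 10.2) in the first library stood against 72.9 CPM (69.0 to 77.0) in the second, or 3.00 on the log2 scale. Ghrl went from 30.9 CPM (28.9 to 33.0) to 58.1 CPM (54.6 to 61.8), a difference of 0.91 on that scale. These 3 hormones had the most UMIs of the members at day 5, nearly all in the few cells named above.

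The remaining members other than Chgb were all at under 5 CPM on both days. Gip measured 0.869 CPM (0.562 to 1.28) in the day 3 library, and 4.67 CPM (3.71 to 5.80) was its level in that of day 5 (log2 ratio 2.41). Sst was at least 40.9-fold higher at day 5, at 4.27 CPM (3.35 to 5.35), set against 3 counts for the 0 UMIs of day 3. Pyy, at 1.95 CPM (1.47 to 2.53) at day 3, was at least 11.3-fold lower at day 5 by the same floor. Tac1 and Chga were lower at day 5, with log2 ratios of -1.93 (-3.05 to -1.06) and -1.39 (-2.22 to -0.68). Chgb, with 17.8 CPM (16.3 to 19.4) in the first library against 14.2 CPM (12.5 to 16.1) in the second, and Tph1, at 0.278 and 0.231 CPM, met neither call. Of the granins, then, Chga was lower and Chgb met no call where Cck, Gcg and Ghrl were higher. The median log2 ratio of the 10 members was 0.36, beside -0.33 over all tested genes.

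**Figure D3:**
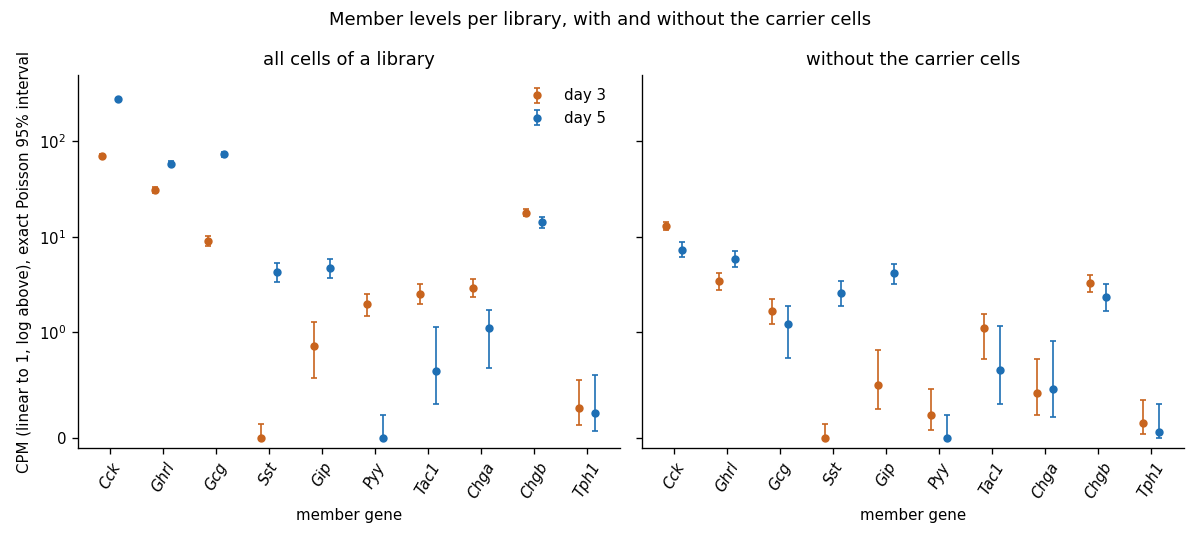
Level of each member in CPM (y, linear up to 1 and logarithmic above) at day 3 (orange) and day 5 (blue) over all cells (left) and without the 16 carriers (right), with exact Poisson 95% intervals. Cck falls from 70.5 and 281 CPM on the left to 13 and 7.32 CPM on the right, and the order of the days turns.

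The day differences of Cck, Gcg, Ghrl, Pyy, Tac1 and Chga depended on which cells were counted. Without the richest cell of a gene in each library, Gcg had a log2 ratio of -0.42 and Ghrl of -0.015, both short of a call, while Cck stayed higher at 2.56. Pyy, at 6 UMIs at day 3 and 0 at day 5 without that cell, lost its call too. Members higher then numbered 3 and members lower 2, beside 12.2% and 32.1% of all genes. Without any carrier cell, Cck was lower at day 5, with a log2 ratio of -0.82, Gcg stood at -0.43 with no call, and Pyy, Tac1 (-0.74) and Chga (0.16) had no call. In all, 3 members were higher (Ghrl, Sst and Gip) and 1 lower, beside 12.2% and 31.5% of all genes. The lowest day 3 cell had 17601 UMIs, and 5 of the 7 day 5 carriers lay below that total. When the 320 day 5 cells above it were compared with day 3, 2 carriers remained, and 2 members were higher and 7 lower. The share of all genes called in those cells was not taken, so these counts cannot be read as particular to the members.

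Outside the carriers, members were found in many cells, mostly at 1 or 2 UMIs and never above 9. With the carriers included, some UMI of a member was present in 435 cells (54.5%) at day 3 and 326 cells (30.6%) at day 5. Outside the carriers Cck measured 13 CPM (11.7 to 14.4) among day 3 cells, against 7.32 CPM (6.10 to 8.72) among those of day 5. Among the 6 day 3 clusters it ranged from 11.4 to 15.2 CPM with intervals that all overlapped. Gcg ranged more widely among them, from 0.630 CPM (0.172 to 1.61) to 2.71 CPM (1.44 to 4.63). So did Ghrl, from 1.21 CPM (0.146 to 4.36) to 4.02 CPM (2.73 to 5.71). In the Proliferating-like cells, a non-secretory class, Cck was at 13.9 CPM and in 40.3% of 124 cells (median 34865 UMIs per cell), beside 37.3% of all day 3 cells (median 32063.5).

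At day 5 the same held for the larger hormones. In the 518 Enterocyte-like cells (median 11086.5 UMIs) Cck was at 7.93 CPM (5.86 to 10.5) and in 9.27% of cells, beside 11.9% of all day 5 cells. The shares in those cells were 7.53% for Ghrl, 4.63% for Gip and 3.67% for Sst, beside 9.67%, 6.67% and 4.13% of all cells. Intervals of Ghrl, Gip and Sst overlapped among the 5 day 5 clusters shown. Whether such low counts come from expression in those cells was not tested. After each cell was thinned to 6700 UMIs, which left out 0 cells, Cck was seen in 8.65% of day 3 cells and 4.98% of day 5 cells, the opposite order to its CPM over all cells.

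**Figure D4:**
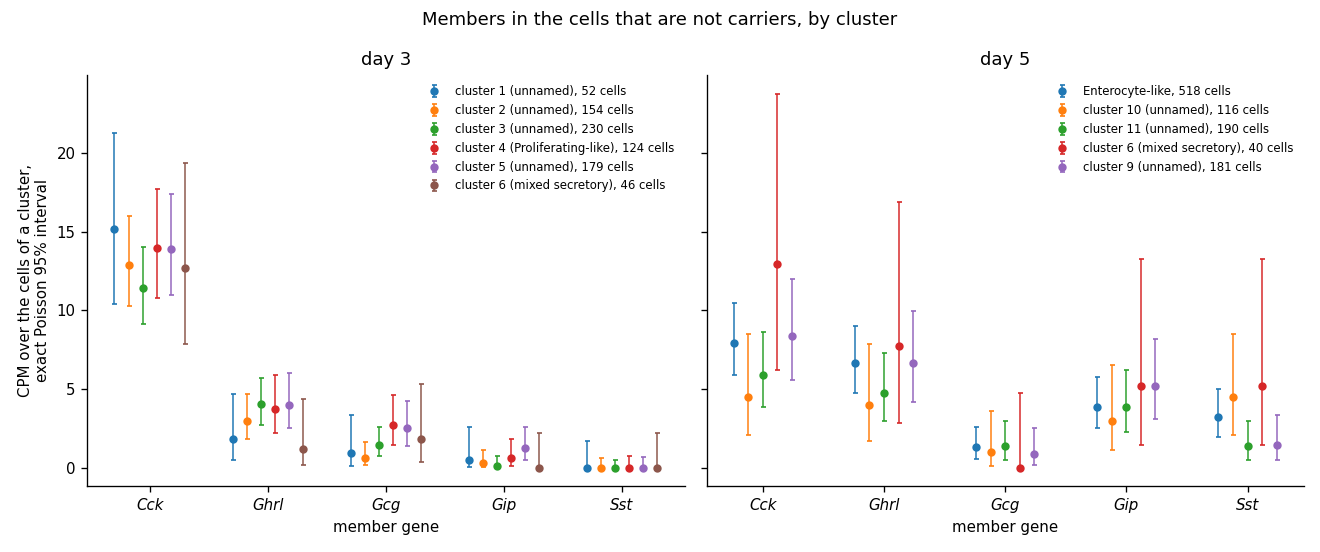
Level of 5 members in CPM (y) over the cells of each cluster that were not carriers, at day 3 (left) and day 5 (right), with exact Poisson 95% intervals; colours are clusters, with the number of cells in the key (clusters of few cells are left out). Intervals of 1 gene overlap between the clusters of 1 day, and Gip and Sst are above their day 3 levels in all the day 5 clusters.

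Levels outside the carriers differed by day, with intervals apart, for Cck, Ghrl, Gip and Sst. Cck was lower at day 5, as given above. Ghrl was higher, at 3.43 CPM (2.78 to 4.18) among day 3 cells and 5.87 CPM (4.78 to 7.13) among those of day 5. Gip outside the carriers measured 0.495 CPM (0.270 to 0.830) among day 3 cells, against 4.13 CPM (3.22 to 5.2) among those of day 5, though no day 5 cell had more than 8 UMIs. Sst outside the carriers was at 2.56 CPM (1.86 to 3.43) at day 5. Of the 74 Sst UMIs, 59.5% lay in cells other than C0440, with at most 2 in any of them. Their source was not tested.

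Clusters were made with the 10 members left out, and 13 of the 16 carriers still fell into 1 cluster. That cluster held 162 day 3 cells, 8 of them carriers, and 11 day 5 cells, 5 of them carriers. It was led by Cacna1a (a neuronal calcium channel subunit that endocrine cells use), Ly6a and Anxa3, and stayed unnamed since 2 of its 25 leading genes were endocrine markers. These markers, Cacna1a and Pam, had only 18.4% and 9.30% of their UMIs in carriers. The other 3 carriers had few member UMIs, 15 to 20 in all: C934 (Gip, 11 UMIs), C0101 (Ghrl, 16) and C0381 (Cck, 11), the last in an Enterocyte-like cluster. They also held few UMIs of the endocrine transcription factors, 0 in C934 and C0101 and 2 in C0381, where the other 13 had 12 to 31. C0101 and C0381 were deep cells, at 3.57 and 2.47 times the median.

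Carriers also held other endocrine genes. Of 19 endocrine transcription factors, at least 5 were detected in 8 of 9 day 3 carriers and 5 of 7 day 5 carriers, against 3 of 789 and 0 of 1058 other cells. Per 10000 UMIs the factors were at 4.28 in the day 3 carriers and 0.27 in the other cells, and at 8.0 and 0.14 at day 5. Pax6 (a factor that drives hormone genes) had all 15 of its UMIs in carriers, Isl1 (a factor of hormone cells) 90.4% of its UMIs and Neurod1 (which acts after Neurog3) 87.8%. Nkx2-2 had 71.7%, Insm1 40.9%, Neurod2 35.3% and Hhex 19.0%. Over the 19 factors the share ranged down to 1.64% for Rfx3, with 1.91% for Mnx1 and 1.85% for Pdx1, a factor of the whole proximal intestine.

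Genes of hormone processing and granules were, as a sum, also higher in the carriers, though single genes differed. The 19 measured genes of that list stood at 2.77 UMIs per 10000 in carriers and 0.14 in other cells at day 3, and at 13.3 and 0.09 at day 5. All 9 day 3 carriers and 5 of 7 day 5 carriers lay above the 95th percentile of the other cells. Scg3 and Scg2 (further granins, with 11 and 50 UMIs in all) had 90.9% and 88.0% of their UMIs in carriers. Cpe (the carboxypeptidase that trims prohormones) had 77.0% and Pcsk1 (the convertase that cuts them) 63.6%. Others were spread more widely, among them Cplx2 (35.9% in carriers), Syt7 (24.4%), Syp (21.1%), Cacna1a (18.4%) and Pam (the enzyme that amidates peptides, 9.30%).

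Among the 18 other gut hormones listed, 11 were in the table, and Sct (secretin) had the most UMIs. It was found in 11 of the 16 carriers, with 153 of its 352 UMIs, at most in C0928 (82 UMIs) and C0855 (27), both Cck-rich. Of the 5 receptors measured, Ffar1 (a fatty acid receptor of hormone cells) had all 8 of its UMIs in carriers. The other receptors were spread more widely, with 1.63% of 245 UMIs in carriers for Ffar4, 20.6% of 34 for Abcc8 and 21.4% of 28 for Ffar2. Sstr5 had 1 of 2. As a list, the receptors lay above the 95th percentile of the other cells in 3 of 9 day 3 carriers. At day 5, where that percentile was 0, they did so in 4 of 7. Of the serotonin list, Fev had 87.0% of its 23 UMIs in carriers, but Ddc, which also serves enterocytes, had 2.24% and Slc18a1 4.8%.

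**Figure D5:**
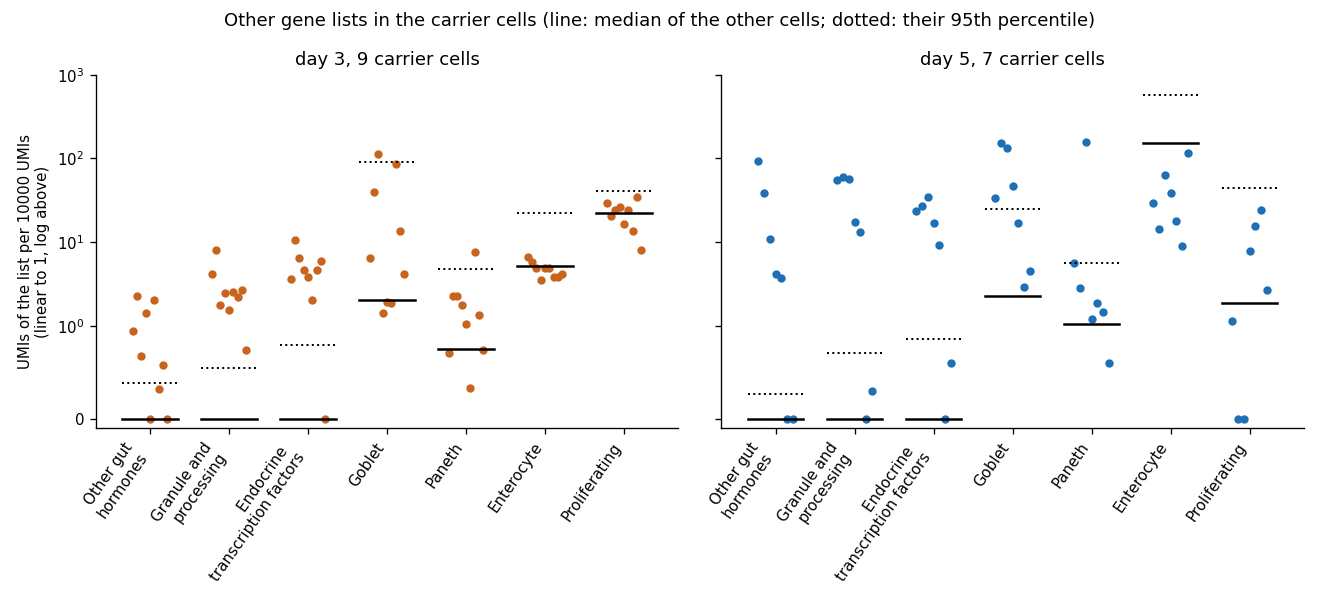
UMIs of each gene list per 10000 UMIs of a cell (y, linear up to 1 and logarithmic above) in the carriers of day 3 (left) and day 5 (right); each point is 1 cell, the line is the median of the other cells of that library and the dotted line their 95th percentile. The 3 endocrine lists shown (other gut hormones, granule and processing genes, transcription factors) lie above the dotted line in most carriers, and the Enterocyte and Proliferating lists below it in all of them.

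Markers of other cell types were present in some carriers, and their part in the hormone values was not tested. Goblet markers stood at 29.1 UMIs per 10000 in day 3 carriers and 17.5 in other cells, and at 26.9 and 23.9 at day 5. Their medians were 6.51 in day 3 carriers and 2.03 in other cells, and 34.0 and 2.28 at day 5, where 4 of 7 carriers lay above the 95th percentile of the other cells. C622 and C620, 2 of the 4 Ghrl carriers of day 3, had 141 and 98 UMIs of Agr2 and 277 and 370 of Tff3, secretory genes of goblet cells. They also held 9 and 5 UMIs of Neurog3. The other Ghrl carriers of that day, C019 and C344, had 4 and 22 UMIs of Agr2, 84 and 31 of Tff3 and 0 of Neurog3. Paneth markers were lower in carriers than in other cells as a sum, 2.04 and 5.65 at day 3 and 9.89 and 24.6 at day 5, though not by their medians (1.34 and 0.75 at day 3, 1.87 and 1.06 at day 5). C0021 held 102 UMIs of Defa24 and 13 of Lyz1. Enterocyte markers were at 44.5 in day 5 carriers and 156 in the other cells. All Tuft markers measured were at 0 in all carriers. Muc2, the gel-forming goblet mucin, was at 0 in 15 of the 16 and at 2 UMIs in C622. The proliferation list had medians of 24.4 in day 3 carriers and 22.3 in other cells, and of 2.69 and 1.88 at day 5.

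Neurog3, the progenitor factor, lay mostly in other cells. It had 125 UMIs at day 3, 13.6% of them in carriers, and 0 at day 5. The 3 day 3 cells that were not carriers but held at least 5 endocrine factors had 26 Neurog3 UMIs between them and 0 UMIs of any member. By day, 1 of the 18 factors tested was higher and 4 were lower at day 5, beside 12.3% and 31.5% of all genes, with Etv1 (3.05) and Pax6 (1.28, no call) at the top of the log2 ratios and Neurog3 and Pax4 (11 UMIs at day 3 and 0 at day 5, no call) at the bottom. Etv1 had 52.9% of its day 5 UMIs in 1 cell and no call without the richest cell of each library, so 0 factors were then higher. Of 16 granule genes tested, 4 were higher and 1 lower, with Ptprn and Scg3 (2.66, no call) at the top and Cacna1a (-1.54) and Ptprn2 (-1.20, no call) at the bottom. Without each gene's richest cell 2 granule genes were higher, as Cpe and Ptprn lost their calls. Of 6 serotonin genes tested, 4 were higher and 1 lower, Maob (5.25) and Slc18a1 (1.70) at the top and Gch1 (-1.18) and Fev (-1.02, no call) at the bottom. Ddc, Gchfr, Gch1 and Maob are also genes of cells other than endocrine ones.

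The genes most like the summed members across all 1863 cells were named by correlation. Pearson's r of log(1 + UMIs per 10000), over 11952 genes and with cells sharing library and depth, was 0.73 for Cpe, 0.72 for Isl1 and for Scgn (secretagogin, a calcium sensor of endocrine cells), and 0.70 for Neurod1. Bex2, Hmgn3, Pcsk1, Ceacam10, Vwa5b2, Nefm, Scg2, Fev, Cacna2d1, Rundc3a and Etv1 followed, from 0.68 down to 0.59. By member, Cck was most like Scg2 (0.78), Ghrl like Nefm (0.77), Gcg like Gm15200 (0.71), Chga like Scgn (0.67), Chgb like Hmgn3 (0.86) and Tph1 like Cryba2 (0.74) and Fev (0.73). Sst was most like Hhex (0.39), a factor of somatostatin cells, of which C0440 had 3 UMIs. Only 19.0% of the 21 Hhex UMIs lay in carriers, and no cell but C0440 had more than 2 Sst UMIs. Gip was most like Gpx3 and Rbp4 (both 0.41), with 108 UMIs of Rbp4 in C0021, and Pyy and Tac1 like Vim (0.39 and 0.46). C344 alone held 50 of the 56 Pyy UMIs and 10 of the 26 Vim UMIs. Among the members, r was highest for Cck with Chgb (0.65) and Ghrl with Chga (0.62). These values are descriptions, and the genes most like the summed members had most of their UMIs in the 16 carriers (77.0% for Cpe and 90.4% for Isl1).

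At the edge of the 10 UMI limit lay C054, with 10 UMIs of Chgb and 8 of Chga, inside, and the day 5 cell C0471, with 9 UMIs of Chgb, 2 of Tac1, 1 of Chga and 4 endocrine factors, just outside.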

How the data were processed

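Droplet-based 3′ single-cell libraries of organoids at day 3 and day 5 were used, 1 each. The authors deposited UMI counts per gene and cell, made with Cell Ranger 1.3.0 on mm10 per the submitters' processing notes, and log2 values of the same cells. From the values, these deposited log2 values are log2 of the count over a size factor proportional to the cell's total, plus 1, and were recomputed to within 5e-14. How the authors filtered genes and cells is not given in the sources used here. For depth, the day 3 library had 28764033 UMIs (median 32063.5, lowest 17601 per cell), and that of day 5 had 17349076 (13549 and 6777). Gene identifiers were matched to symbols for 15681 of 15745 genes. Cell names hold serial numbers, 741 of them used in both libraries, and no barcode sequence, so shared barcodes were not counted.

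Counts were summed per library as CPM with exact Poisson 95% intervals, and before log2 ratios (day 5 over day 3) were taken, 0.5 UMI was added to the sums. For a sum of 0, a floor of 3 counts per library was used. A 3′ tag count does not scale with transcript length, so members were compared as UMIs. A gene was called where the ratio reached 1.5-fold and the intervals lay apart, among genes with at least 10 UMIs over both libraries. The rule was tested on simulated Poisson counts. These lack the gathering of UMIs in few cells seen for the members, so its error for such genes is not known. The median log2 ratio of all tested genes was -0.33 with CPM and -0.02 with TMM factors, a shift of 0.31. With TMM 18.8% of genes were higher and 17.1% lower, in place of 12.3% and 31.5%, and the members' 5 and 3 calls did not change in number. Cells were clustered with scanpy 1.11.5 (Leiden method, igraph 0.11.9) on 2000 variable genes without the members, and clusters were named from listed markers. Doublets were not called.

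The genes named are the 10 members, the 2 genes of each other list with most UMIs in carriers or with extreme ratios, and the genes most like the members, with further ones (such as Neurog3, Pdx1 and Pam) chosen after their values were seen. The members and lists were chosen with earlier results of these data known. Versions were Python 3.11.15, numpy 2.4.6, pandas 2.3.3, scipy 1.17.1, matplotlib 3.10.9, R 4.3.3, edgeR 4.0.16 and DESeq2 1.42.0, the last 2 for scaling factors only. Promoter sequences come from RefSeq windows on GRCm38.p6, in which all 10 members were matched by symbol.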

Additional observations from a re-analysis of the deposited data

How the results depend on the processing

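No paired analysis was possible because each day has 1 library. The count of 5 members higher and 3 lower at day 5 was 5 and 3 with TMM factors, DESeq2 size factors and no minimum of UMIs, and 4 and 3 at a 2-fold limit. It was 3 higher without each gene's richest cell, and 2 higher and 7 lower when day 5 was limited to cells of at least 17601 UMIs. This limit removes 5 of 7 carriers by construction, and the share of all genes called under it was not taken. Under that limit the log2 ratios of Cck, Ghrl and Gcg turned to -3.10, -1.96 and -2.62. Without the richest cell Ghrl turned to -0.015 and Gcg to -0.42. Without the carriers, an alternative added after seeing the data, Cck turned to -0.82, Gcg to -0.43 and Chga to 0.16. By the authors' log2 values averaged over cells, Cck stood at -0.15 and Gcg at -0.015. By the mean over cells of UMIs per 10000, Cck stood at 3.5, Gcg at 4.78 and Chgb at 0.72, and 6 members were at least 1.5-fold higher and 3 lower. Those 2 counts used the ratio alone, without intervals, and the share of all genes was not taken for them. At a limit of 3 UMIs day 3 had 22 carriers, 9 of them with 2 or more members. Day 3 cells with 2 or more members numbered 3 at 20 UMIs, 3 at 3 UMIs after thinning and 3 at 5 UMIs per 10000. When only carriers with at least 3 endocrine factor UMIs were kept, 8 and 5 carriers remained, with 5 and 4 of them holding 2 or more members. By Spearman's rho the highest value to the summed members was 0.15, and 3 of the 15 most similar genes (Cpe, Neurod1 and Scgn) were shared with Pearson's r. Depth limits the shares of cells, since the median day 5 cell had 13549 UMIs and the day 3 cell 32063.5, and only 16 cells bear on which hormones share a cell.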
